A study of Mus musculus with 6 samples.

Results

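The genes described here are 51 genes of mitosis and cytokinesis, the machinery that megakaryocytes use in a modified way when they become polyploid, measured in megakaryocyte progenitors with wild-type or floxed alleles of the gene for the transcription factor SCL. The listed members are genes of the G2 and M phases of the cell cycle, from cyclins and mitotic kinases to kinetochore, spindle and cleavage furrow proteins. Each array probe annotated to them was taken, and a probe was kept when its detection p was under 0.05 on 3 or more arrays. Of the 51 genes, 47 had an annotated probe, with 88 probes in all, and 38 genes had at least 1 of the 51 kept probes; these 38 were among 8946 genes tested. Of the other 13, Ccnb1, Cenpf, Kif20a and Mki67 were not analysed here, and Ccna2, Ccnb2, Cks2, Nek2, Ttk, Ube2c, Espl1, Hmmr and Ect2 had probes that were not above background on any array.

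RNA came from megakaryocyte progenitors sorted from the bone marrow of mice aged 3 to 4 months of the strain mix 129SVxC57Bl/6. One group carried TGPF4-CRE with wild-type Scl (SCL wt/wt, titled TG +/+) and the other TGPF4-CRE with floxed Scl (SCL fl/fl, titled TG fl/fl), in which the design describes complete excision of Scl. Both groups therefore carried the Cre transgene, whose Pf4 promoter is active in megakaryocytes and their progenitors, and there were 3 arrays of each genotype. Neither the labels nor the design state if each sample is 1 animal, a pool or a split of 1 pool. The spread behind every p-value may therefore be technical, and ploidy and sort gates of the cells are likewise unstated.

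In an ordinary mitosis, cyclin B with Cdk1 drives entry, the spindle checkpoint holds anaphase until every kinetochore is attached, and the anaphase promoting complex (APC/C) with Cdc20 then destroys securin and cyclin B. The midzone proteins and the small GTPase RhoA afterwards build the cleavage furrow that divides the cell. Maturing megakaryocytes enter mitosis repeatedly but abandon it during anaphase or at the furrow, a process called endomitosis that raises their DNA content. SCL, encoded by Tal1, is a basic helix-loop-helix factor needed for normal megakaryocyte development.

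Many G2/M genes share promoter letters: the CHR element, TTTGAA, which recruits the MuvB complexes that repress them in resting cells and activate them in G2, and repeated CCAAT boxes, which bind NF-Y. These promoters are shown because the factors that read them were measured on the same arrays. In RefSeq windows of build GRCm38.p6, from 250 bases before to 50 bases after each start, 44 of the 51 genes had a promoter. TTTGAA, searched on both strands, was present in 30 of them (68.2%), against 20.2% of 27025 genes and 14.4% of the 7346 tested genes with a promoter. At least 2 CCAAT boxes, also on both strands, were present in 23 (52.3%), against 13.3% of all genes and 16.7% of tested genes. Both features occurred in 19 of the 44 (43.2%) and in 2.42% of all genes. For the 33 tested members with a promoter these shares were 66.7%, 39.4% and 36.4%, against 14.4%, 16.7% and 2.44% of tested genes. Where TTTGAA was present, the match nearest the start lay within 50 bases of it in 27 of 30 members and in 27.5% of all genes with a match. These are matches of letters, not measured binding. The 4 measured genes with both features and the smallest p follow, from 150 bases before to 30 bases after the start, 5′ to 3′ on the coding strand. Capitals mark TTTGAA (or TTCAAA, its other strand) and CCAAT (or ATTGG).
Spag5, chr11:78301441-78301620, plus strand: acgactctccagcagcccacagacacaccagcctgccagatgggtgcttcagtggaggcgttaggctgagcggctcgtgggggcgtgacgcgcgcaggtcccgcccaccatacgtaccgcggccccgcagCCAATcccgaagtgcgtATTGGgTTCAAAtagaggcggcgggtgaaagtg
Cdk1, chr10:69352883-69353062, minus strand: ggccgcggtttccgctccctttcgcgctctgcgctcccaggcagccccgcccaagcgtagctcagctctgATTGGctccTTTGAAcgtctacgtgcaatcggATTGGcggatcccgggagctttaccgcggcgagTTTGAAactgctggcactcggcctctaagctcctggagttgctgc
Top2a, chr11:99024160-99024339, minus strand: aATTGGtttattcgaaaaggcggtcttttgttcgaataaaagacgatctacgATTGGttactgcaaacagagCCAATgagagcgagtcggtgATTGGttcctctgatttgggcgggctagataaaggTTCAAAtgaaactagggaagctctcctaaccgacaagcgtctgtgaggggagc
Spc25, chr2:69206184-69206363, minus strand: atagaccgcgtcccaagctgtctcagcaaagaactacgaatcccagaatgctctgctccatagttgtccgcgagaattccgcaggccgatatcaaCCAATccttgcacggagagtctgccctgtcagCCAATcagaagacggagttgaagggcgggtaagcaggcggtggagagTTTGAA
The stretch of Cdk1 held 2 TTTGAA and 2 CCAAT matches, and that of Top2a 1 and 4. The TTTGAA match nearest the start began at base 4 in Spag5, base -15 in Cdk1, base -23 in Top2a and base 25 in Spc25, counted from 1 at the start.

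On each array between 15183 and 16338 of 46632 probes were above background, and between 35 and 37 of the 38 genes were. Levels are log2 intensities after background correction and quantile normalization; they compare arrays for 1 probe, not 1 gene with another. Tal1, the targeted gene, was at 12.83, 13.28 and 13.29 on the wild-type arrays and at 11.22, 9.80 and 11.47 on the fl/fl arrays, above background on all 6. It fell by 2.30 ± 0.39 (log2, SE; limma adjusted p = 0.0352); whether its probe lies in the deleted part was not checked here. Wild-type arrays 1 and 2 resembled each other most (correlation across genes 0.995, against 0.966 to 0.990 for the other pairs). Wild-type array 3 correlated at 0.984 and 0.983 with wild-type arrays 1 and 2. With fl/fl arrays 1, 2 and 3 it correlated at 0.987, 0.981 and 0.987. Xist, a transcript of female cells, was at 10.53, 10.89 and 9.13 on the wild-type arrays but at 5.21, 5.80 and 10.52 on the fl/fl arrays. Eif2s3y, a gene of the Y chromosome, was above background on all 6 arrays, and Uty, another, on 5. Eif2s3y was at 6.6, 7.1 and 7.9 in wild-type and at 8.5, 8.1 and 7.6 in fl/fl. The Xist level is therefore not a clean label of sex, and mixing of sexes within samples was not tested. Xist was lowest on fl/fl arrays 1 and 2, so as a covariate it also takes up part of the genotype difference. With the Xist level as a covariate, 10 of the 38 mitosis genes took the other sign and none passed (lowest limma adjusted p 0.649); the larger moves are given beside the genes. Of 11 megakaryocyte markers all 10 tested were above background on every array and none passed. Their log2 fold changes ran from Itga2b at 1.13 through Pf4 at -0.07 to Itgb3 at -0.69. At an unadjusted p under 0.05 (limma) there were 4 of 10 (40%, against 16% of all tested genes). Of 9 stem and early progenitor markers 5 were tested and none passed, but Slamf1, Cd34 and Tek were lower on every fl/fl array, at -1.92, -0.89 and -0.64. The groups were thus separate in 60% of the 5, against 19.6% of all tested genes. Of 11 erythroid markers 7 were tested and none passed. Hba-a1 was higher on every fl/fl array, at 1.28, and Car2 and Tfrc were lower on every one, at -0.97 and -0.21. The groups were separate in 42.9% of the 7, against 19.6% of all tested genes. By contrast, 0 of 5 monocyte and 2 of 8 lymphocyte markers passed the filter. The 8 tested neutrophil markers of 11 all had lower means in fl/fl, with a summed linear level of 6594 to 11658 on wild-type and 5829 to 7334 on fl/fl arrays. The summed level of 5 of 7 mast cell and basophil markers was 9792 to 10989 on wild-type and 14551 to 15643 on fl/fl arrays. Gata2 and Kit, which megakaryocyte progenitors also express, were the brightest of them. Means were higher in fl/fl for 4 of these 5, and Gata2 passed (0.66, limma adjusted p = 0.0455). Cpa3, Fcer1a and Kit had 1.17, 0.68 and 0.19, and the basophil protease Prss34 had -1.87. In bulk RNA, fewer dividing cells and less mitotic RNA per cell cannot be told apart, and the part of other cells in the mitotic signal was not tested.

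The comparison asked how the mitotic programme differs between the floxed and the wild-type genotype. None of the 38 genes passed an adjusted p of 0.05 in either direction (limma, Benjamini-Hochberg over all 8946 genes), where 1.23% of all tested genes did. At an unadjusted p of 0.05 there were 4, Nuf2, Incenp, Bub1b and Cit (10.5%, against 16% of all tested genes). Complete separation of the groups was seen in 5, higher in fl/fl for Nusap1 and Incenp and lower for Nuf2, Bub1b and Spc25 (13.2%, against 19.6% of all tested genes). Means were higher in fl/fl for 20 genes and lower for 18, and the median log2 fold change was 0.01, against 0.03 over all tested genes. Among the 34 genes above background on all 6 arrays, 3 had an unadjusted p under 0.05 (8.82%, against 16% of all genes so detected) and 4 were separate (11.8%, against 20.2%). The median size of the fold change was 0.14, against 0.17 over all tested genes.

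The intervals describe 1 probe per gene. For 35 of the 38 genes the 95% interval of the fold change lay inside a 2-fold change either way, the exceptions being Nuf2, Ckap2 and Cit, and for 25 it lay inside 1.5-fold. The corresponding shares were 92.1% and 65.8%, against 90.6% and 60.2% of all tested genes. The 35 include Ndc80, Kif11 and Racgap1, each above background on only 3 arrays. Among the 34 genes above background on all 6 arrays, 32 lay inside 2-fold (94.1%, against 91.3% of all genes so detected). The median SD within a group was 0.17 (log2), against 0.19 for all tested genes. Other kept probes of a gene could lie outside its interval, as those of Cdc20, Cdc25c and Kif4, 1 of Birc5 and 1 of Top2a did. The plot of fold changes shows that most intervals cross 0 and stay short of the dotted 2-fold lines.

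**Figure D1:**
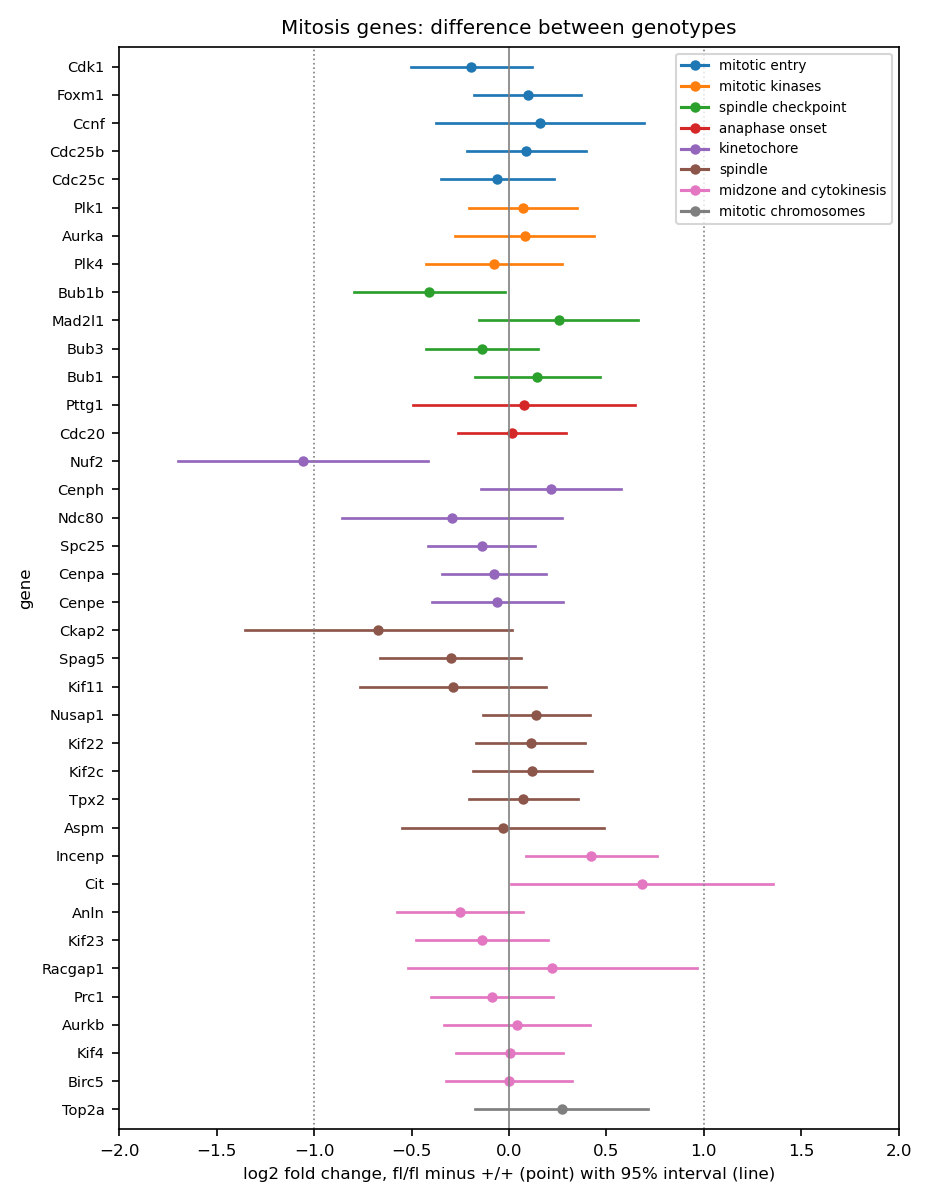
Log2 fold change of each of the 38 genes, fl/fl minus +/+ (points), with its 95% interval from limma (lines), coloured by role; dotted lines mark a 2-fold change. Nuf2 at -1.06, Ckap2 at -0.67 and Cit at 0.68 have intervals that reach past a 2-fold change; Nuf2 was above background on only 1 fl/fl array.

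**Figure D2:**
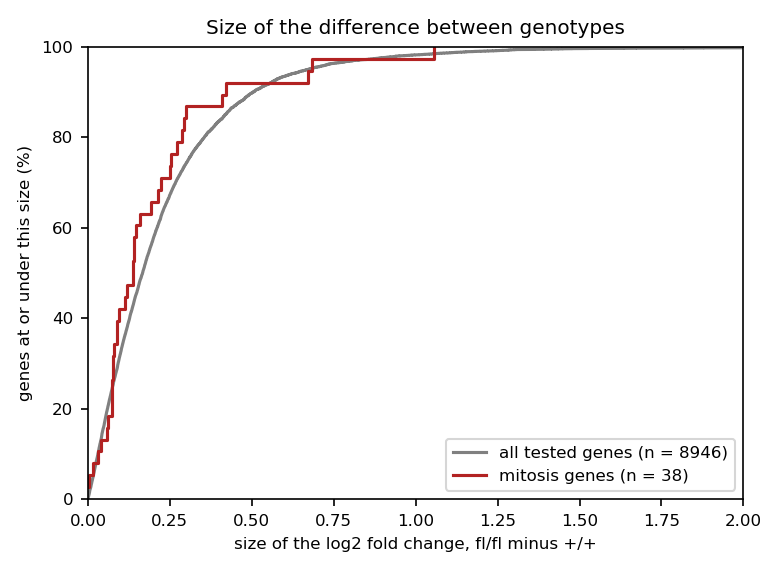
Share of genes (percent) whose log2 fold change is at or under a given size, for the 38 mitosis genes and for all 8946 tested genes. The curves lie close together, with median sizes of 0.14 and 0.17.

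Of 9 genes that drive entry, 5 were tested and none passed (median log2 fold change 0.09). Cdk1, the kinase that triggers mitosis, was at 10.91, 10.79 and 10.61 on the wild-type arrays and at 10.71, 10.57 and 10.46 on the fl/fl arrays. The ranges of the genotypes overlapped, and the log2 fold change of Cdk1 was -0.19 (95% interval -0.50 to 0.12). Ccnf, which encodes cyclin F, an F-box protein, was at 6.23, 6.82 and 7.06 in wild-type and 6.77, 7.19 and 6.64 in fl/fl, so that wild-type array 1 was low and the other 5 arrays were mixed; its log2 fold change was 0.16. Foxm1, a transcription factor of G2/M genes, had a log2 fold change of 0.10, and Cdc25b and Cdc25c, phosphatases that activate Cdk1, had 0.09 and -0.06. A dimmer kept probe of Cdc25c had 0.28.

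Of 4 mitotic kinases, Plk1, Aurka and Plk4 were tested, and none passed. Plk1, a kinase of mitotic entry, spindle assembly and cytokinesis, was at 11.35, 11.36 and 11.38 on the wild-type arrays and at 11.50, 11.51 and 11.29 on the fl/fl arrays, with a log2 fold change of 0.07 (interval -0.20 to 0.35) that was -0.05 with the Xist covariate. Aurka, the centrosome kinase Aurora A, was at 10.60, 10.44 and 10.09 in wild-type and 10.34, 10.54 and 10.48 in fl/fl. Plk4, which controls centriole duplication, was at 8.31, 8.06 and 7.78 in wild-type and 7.94, 7.95 and 8.02 in fl/fl. For both Aurka and Plk4 the fl/fl arrays lay inside the wild-type range, and their log2 fold changes were 0.08 and -0.08.

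Of 5 spindle checkpoint genes, 4 were tested and none passed. Bub1b, which encodes the checkpoint protein BubR1, was at 10.02, 10.40 and 10.04 on the wild-type arrays and at 9.92, 9.46 and 9.85 on the fl/fl arrays. Every fl/fl array lay below every wild-type array, and the log2 fold change was -0.41 ± 0.17 (SE; limma adjusted p = 0.292). Mad2l1, which encodes the Mad2 protein that inhibits Cdc20, was at 8.05, 8.09 and 7.81 in wild-type and 8.50, 7.89 and 8.33 in fl/fl. Those ranges overlapped through fl/fl array 2, and the log2 fold change was 0.25. Bub1 and Bub3, a checkpoint kinase and its binding partner, had 0.15 and -0.14, so the checkpoint genes did not share a direction.

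Of 4 genes of anaphase onset, Cdc20 and Pttg1 were tested, and neither passed. Cdc20, the APC/C activator, was at 11.37, 11.42 and 11.42 in wild-type and 11.32, 11.56 and 11.37 in fl/fl on its brightest probe, with a log2 fold change of 0.02. The probes of Cdc20 disagreed: a dimmer one was at 8.45, 8.12 and 8.39 in wild-type and at 8.05, 7.87 and 7.33 in fl/fl, with no overlap and a log2 fold change of -0.57 (limma adjusted p = 0.276 over single probes), and another had -0.48. Pttg1, which encodes securin, was at 5.98, 6.11 and 5.94 in wild-type and 6.65, 5.54 and 6.07 in fl/fl, where the fl/fl arrays lay on both sides of the wild-type ones and the fold change was 0.07.

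Of 7 kinetochore genes, 6 were tested, 5 with lower means in fl/fl, and none passed (median log2 fold change -0.11). Nuf2, a subunit of the NDC80 complex that holds microtubules, was at 6.32, 5.89 and 6.53 on the wild-type arrays and at 4.87, 4.87 and 5.84 on the fl/fl arrays. It was above background on all 3 wild-type arrays but only on array 3 of the fl/fl group, and the groups did not overlap. The fitted log2 fold change of Nuf2 was -1.06 ± 0.28 (SE; limma adjusted p = 0.143). Its values on fl/fl arrays 1 and 2 lay under the lowest signal detected there (5.27 and 5.40), so the size of the difference is not measured, and the probe passed the detection filter through the wild-type group. The fitted value was -0.53 without background correction, -0.56 with the authors' normalized values and -0.62 with the Xist level as a covariate. Its adjusted p ran from 0.0373 to 0.649 over the alternatives, the lowest without fl/fl array 3, where both remaining fl/fl values are below background.

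Among the members, the other tested subunits of that complex were Ndc80 and Spc25. Spc24, a further subunit, was tested with the other kinetochore genes. It was above background on all 6 arrays and had a log2 fold change of -0.05 (interval -0.39 to 0.29). Ndc80 had a log2 fold change of -0.29 and was above background on 2 wild-type arrays and 1 fl/fl array. Spc25 was at 7.95, 7.79 and 7.75 in wild-type and 7.63, 7.75 and 7.69 in fl/fl, with a fold change of -0.14 and no overlap of the groups, the nearest arrays differing by less than the SD within a group. Cenph, a protein of the inner kinetochore, was at 7.72, 7.45 and 7.52 in wild-type and 7.96, 7.50 and 7.86 in fl/fl, with overlap and a fold change of 0.21. Cenpa, the centromeric histone H3, had -0.08 with an interval of -0.34 to 0.19 (0.18 on its dimmer probe), and Cenpe, a kinetochore motor, had -0.06.

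Of 9 genes for spindle motors and spindle proteins, 8 were tested, 4 with a higher and 4 with a lower mean, and none passed. Ckap2, a microtubule stabilizer, was at 8.21, 7.92 and 7.60 on the wild-type arrays and at 7.92, 6.68 and 7.11 on the fl/fl arrays. Its log2 fold change was -0.67 ± 0.30 (SE; limma adjusted p = 0.322), with fl/fl array 1 inside the wild-type range; without that array it was -1.01 and without fl/fl array 2 it was -0.39. Nusap1, which bundles spindle microtubules, was at 11.04, 11.00 and 10.83 in wild-type and 11.13, 11.11 and 11.06 in fl/fl. All fl/fl arrays of Nusap1 were higher, but the fold change was 0.14 with an interval of -0.13 to 0.42. Spag5 had -0.30 and Kif11, the motor that separates the spindle poles, had -0.29, above background on 3 arrays. Kif2c, Kif22 and Tpx2 had 0.12, 0.11 and 0.07, and Aspm, a spindle pole protein, had -0.03.

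Of 11 genes of the midzone and cytokinesis, 9 were tested, 5 with a higher mean, and none passed (median log2 fold change 0.0035, or -0.15 with the Xist covariate). Incenp, the scaffold of the chromosomal passenger complex, was at 10.38, 10.32 and 10.77 on the wild-type arrays and at 10.90, 10.94 and 10.89 on the fl/fl arrays. All fl/fl arrays were higher, and the log2 fold change of Incenp was 0.42 ± 0.15 (SE; limma adjusted p = 0.227). It passed without wild-type array 3 (0.56, adjusted p = 0.0369) and with array weights (0.51, adjusted p = 0.0340), and over all alternatives its adjusted p ran from 0.0340 to 0.695. Its partners in that complex gave smaller values: Aurkb, the Aurora B kinase, had 0.04 (-0.21 with the Xist covariate), and Birc5, which encodes survivin, had means of 11.67 in both genotypes. Both dimmer kept probes of Birc5 had lower means in fl/fl, at -0.39 and -0.30, with fl/fl array 3 the lowest.

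Cit, which encodes citron kinase, a RhoA effector at the midbody, was at 5.69, 5.90 and 6.80 on the wild-type arrays and at 7.05, 6.99 and 6.41 on the fl/fl arrays. Wild-type array 3 lay between the fl/fl arrays, apart from the other wild-type arrays. The log2 fold change of Cit was 0.68 ± 0.29 (SE; limma adjusted p = 0.306), the highest of the 38. It passed without wild-type array 3 (1.02, adjusted p = 0.0329), stood at 0.19 once the Xist level entered as a covariate, and its adjusted p ran from 0.0329 to 0.882. Racgap1, a subunit of centralspindlin, also had its high wild-type value on array 3, at 4.88, 5.02 and 6.10 in wild-type and 5.80, 5.75 and 5.12 in fl/fl, with signal above background on 1 wild-type and 2 fl/fl arrays. Its fold change was 0.22 and turned to -0.32 with that covariate.

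Anln, which encodes anillin, the scaffold of the furrow, was at 10.83, 10.97 and 10.60 in wild-type and 10.46, 10.68 and 10.51 in fl/fl. The groups overlapped and the fold change was -0.25. Kif23, the motor of centralspindlin, had -0.14, Prc1, which bundles midzone microtubules, had -0.09, and Kif4, a midzone motor, had 0.0035, with 0.45 on its dimmer probe. Ect2, the exchange factor that switches on RhoA at the midzone, had both of its probes below the detection limit on all 6 arrays.

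Of 2 genes of mitotic chromosomes, Top2a was tested and did not pass. Top2a, the topoisomerase that untangles sister chromatids, was at 10.03, 10.12 and 10.68 on the wild-type arrays and at 10.63, 10.69 and 10.32 on the fl/fl arrays. Wild-type array 3 again lay with the fl/fl arrays, and the fold change was 0.27 (limma adjusted p = 0.529), or -0.0071 with the Xist covariate. Dimmer kept probes of Top2a had 0.01 and -0.35, so the probes gave no common direction.

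**Figure D3:**
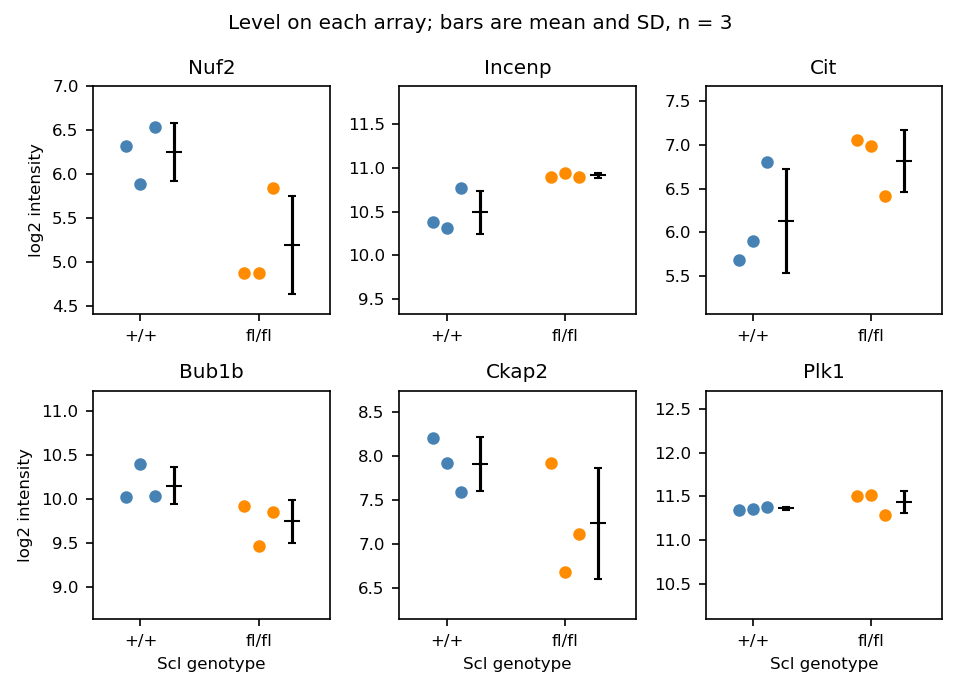
Log2 intensity on each array for 6 genes, with the mean and SD of each genotype (n = 3) beside the points; every panel spans the same range of log2 units. Nuf2, Incenp and Bub1b do not overlap between genotypes, Cit and Ckap2 do, and Plk1 lies between 11.29 and 11.51 on all 6 arrays.

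The variation between arrays was about as large as for all tested genes and had no common direction across roles. The median deviation of the 38 genes from each gene's own mean lay between -0.06 on fl/fl array 3 and 0.04 on fl/fl array 1. Over the arrays the level of a member spanned a median of 0.48 log2 units, against 0.54 for all tested genes. Single members spanned from 0.20 (Kif4) to 1.67 (Nuf2, with the limit given above). The map of levels shows opposite patterns side by side: Ckap2, Kif11 and Ndc80 were low on fl/fl array 2, where Cit and Racgap1 were above their means.

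**Figure D4:**
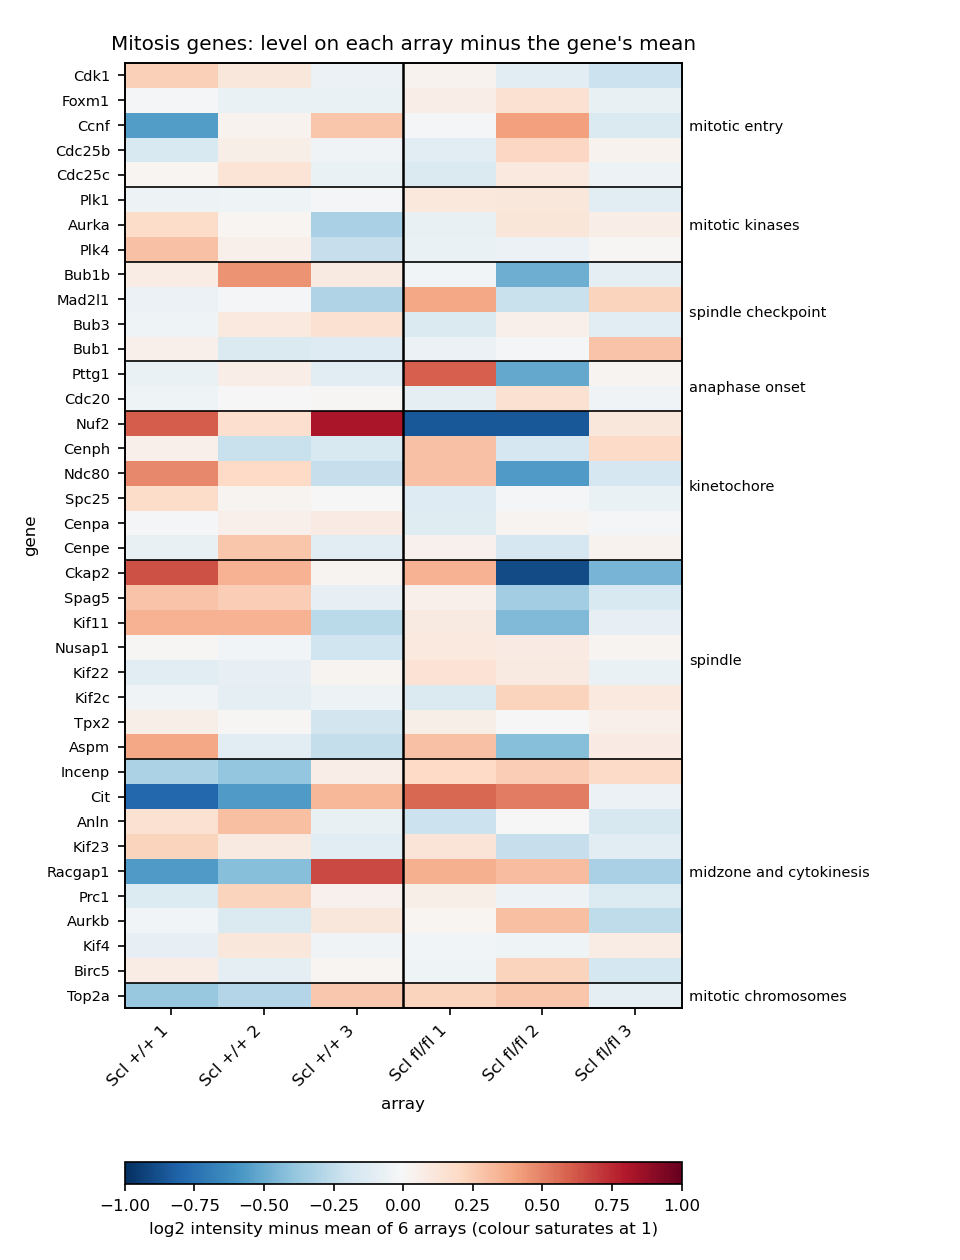
Log2 intensity of each of the 38 genes on each array minus that gene's mean over the 6 arrays (colour), in blocks by role, with wild-type arrays to the left of the vertical line. Few genes separate the blocks of arrays; Nuf2, Ckap2 and Cit hold the strongest colours.

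A probe below background does not show that a gene is off, since 19 of the 38 tested genes also had a probe that was not kept. Plk1, for example, was bright on 1 probe and not above background on its other. Of the 9 genes with several kept probes, 4 had the same sign on all of them. None of the 51 kept probes passed when tested singly, where 0.453% of 16122 kept probes did (limma adjusted p under 0.05).

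The rest of the mitotic machinery gave similar counts. None of 13 tested APC/C subunits and regulators of 16 passed (median log2 fold change -0.03), nor of 18 condensin and cohesin genes of 22 (-0.06), 24 other kinetochore and checkpoint genes of 31 (0.08) or 27 other spindle and cytokinesis genes of 35 (-1.7e-03). At an unadjusted p under 0.05 (limma) these lists had 1, 2, 0 and 4 genes in that order (7.69%, 11.1%, 0% and 14.8%, against 16% of all tested genes). The smallest p values belonged to Cdc16 and Fzr1 (-0.38 and 0.40), Ncapd3 and Ncapd2 (-0.32 and 0.46), and Mad1l1 and Ska2 (0.33 and 0.46). Tacc1, a centrosomal coiled-coil protein, had -0.56 with no overlap of the groups (limma adjusted p = 0.159). Clasp2, a microtubule plus-end protein, had a fitted value of -0.41 (limma adjusted p = 0.255). It was above background on 3 wild-type arrays and on 0 fl/fl arrays. Its probe therefore passed the detection filter through the wild-type group, and the size of the difference is not measured. Fzr1, the other activator of the APC/C, and Ncapd2, a condensin subunit, were higher on wild-type array 3 than on wild-type arrays 1 and 2.

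Of 15 tested genes of RhoA and the actomyosin ring, out of 21, none passed (limma; median -0.04), and 1 had an unadjusted p under 0.05 (6.67%, against 16%). Septin7, a filament protein of the furrow, and Mrtfa, an actin-regulated coactivator, had the smallest p, with fitted values of -0.52 (adjusted p = 0.167) and 0.56 (adjusted p = 0.377). Septin7 was above background on 3 wild-type arrays but on 1 fl/fl array, so the size of its difference is not measured. Myh10, the non-muscle myosin heavy chain IIB, which human megakaryocytes lack at the furrow in endomitosis, had -0.04 with an interval of -0.40 to 0.33, and Myh9, the heavy chain IIA, had 0.15. Arhgef2, a RhoA exchange factor, had -0.25. These 3 genes were named for their role in endomitosis after their values were seen.

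Upstream of the programme, none of 8 tested entry regulators of 12 passed (limma, median -0.11). At an unadjusted p under 0.05 (limma) there was 1 (12.5%, against 16% of all tested genes). Arpp19 and Mastl, which act on the phosphatase PP2A, had -0.42 and 0.26. Of 13 tested MuvB, E2F and NF-Y factors of 21 none passed (limma, median 0.05). An unadjusted p under 0.05 (limma) was seen in 4 (30.8%, against 16% of all tested genes). The groups were separate in 5 (38.5%, against 19.6% of all tested genes), higher in fl/fl in 4 and lower in 1. Lin54, the MuvB subunit that binds the CHR element, was at 8.67, 8.15 and 7.95 on the wild-type arrays and at 7.71, 7.43 and 7.61 on the fl/fl arrays. Its log2 fold change was -0.67 ± 0.19 (SE; limma adjusted p = 0.159). Rbbp4, another MuvB subunit, was at 9.83, 9.97 and 10.04 in wild-type and 10.29, 10.36 and 10.40 in fl/fl, with 0.40 ± 0.12 (SE; limma adjusted p = 0.168). Both genes separated the genotypes on every array, in opposite directions, and neither passed. Mybl2, E2f7 and Tfdp2 were also higher on every fl/fl array, at 0.34, 0.42 and 0.29. For Mybl2 the separation was narrow, with wild-type array 3 at 7.62 and fl/fl array 1 at 7.63. Wild-type arrays 1 and 2 were at 7.15 and 7.20.

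Cdkn1a, which encodes p21, an inhibitor of cyclin-dependent kinases, rose in fl/fl by 2.80 ± 0.46 (log2, SE; limma adjusted p = 0.0339). It was at 6.31, 5.42 and 6.85 on the wild-type arrays and at 8.78, 9.94 and 8.27 on the fl/fl arrays. The groups did not overlap.

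The count of mitosis genes that passed depended on single arrays. Without wild-type array 1 or 2 or fl/fl array 1 or 2, the number of members passing stayed at 0. Without wild-type array 3 it was 2 of 38, Incenp and Cit, where 7.58% of all tested genes passed. Without fl/fl array 3 it was 1, Nuf2 with the limit given above, where 0.85% of all tested genes passed.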

How the data were processed

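RNA from 6 samples, 3 of each Scl genotype, was amplified, biotin labelled and hybridised to Illumina bead arrays, per the labels. The table deposited by the authors without normalization holds log2 signals, as its values show, and the other deposited table holds the authors' normalized log2 values, which differ from a quantile normalization of the first by 0.0865 at most. A detection score was deposited beside each signal under a header naming a p-value; it climbs with the signal (rank correlation 0.997 or more on each array), and 1 minus it was therefore used as the detection p. Of tools, only limma appears in the submitters' processing notes, unversioned.

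Signals were made linear and put through neqc (limma 3.58.1, R 4.3.3; offset 16); its quantile step would remove a shift of most genes one way. Of 46632 probes, 16122 passed a detection p under 0.05 on 3 arrays. The platform annotation named 1 gene for 29976 probes, several for 10 and none for 16646. The brightest kept probe stood for each of 8946 genes, and the genotypes were compared with lmFit and eBayes, both directions tested. Each adjusted p is Benjamini-Hochberg over that whole table, and 95% intervals come from the same model. Only the model fit was tested on simulated data, drawn independently for each gene. That test did not cover background correction, normalization, the detection filter or the choice of probe. The number of arrays limits precision. The labels give no batch.

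The members and gene lists were chosen with earlier results of these data known. All members are accounted for; arrays' values are given for members whose groups did not overlap and for those with the lowest and highest fold change of each role, and of other lists the genes that passed and the 2 others with the smallest p are named. Promoter sequences are from RefSeq (GRCm38.p6). Alternatives were the authors' values, no background correction, median scaling, no detection filter, detection p under 0.01 on 6 arrays, a trend and robust prior, array weights, the replicate block, the mean of probes, the Xist level as a covariate and leaving out each array.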

Additional observations from a re-analysis of the deposited data

How the results depend on the processing

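The count of members passing was 0 in each direction under 13 of 16 alternatives. With array weights 1 was higher (Incenp; 10.2% of all genes passed, against 1.23%), and leaving out 1 array gave 0 to 2 higher and 0 to 1 lower; without wild-type array 3, 7.58% of all genes passed. Same-numbered samples' deviations from their group means correlated at 0.109, -0.267 and -0.182. With 3 arrays per group these values show no pairing by number but cannot exclude it. The replicate number as a block gave 0 and 0, with a median of 0.01 and a lowest adjusted p of 0.0691 for Nuf2; it passed 50 genes in all against 110. The Xist covariate passed 2 genes in all, and 10 of the 38 members took the other sign under it. Median fold changes of the members lay between -0.02 and 0.05 over the alternatives. Of 38 members 21 kept their sign in every alternative that tested them. Without a detection filter 47 members were tested and 0 passed (3 at an unadjusted p under 0.05); with the stricter filter 31 were tested and 0 passed. The mean of a gene's probes gave Cdc20 -0.35, Birc5 -0.23, Kif4 0.23 and Top2a -0.02. Dim probes, such as those of Nuf2, Ndc80, Kif11 and Racgap1, limit the precision of their fold changes.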
